A study of Homo sapiens with 13 samples.

Results

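YAP1 and WWTR1 (TAZ), the TEAD factors TEAD1, TEAD2, TEAD3 and TEAD4, and the target genes CCN1 (CYR61), CCN2 (CTGF), ANKRD1 and AMOTL2 were followed in human embryonic stem cells exposed to BMP4. These 10 genes were taken by symbol, and all 10 were listed in both count tables, among 61546 features. They and the gene lists used below were chosen with earlier results of these data known. Counts of calls among them therefore describe these data and are no independent support. All 10 passed the filter on low values in the time series, and 9 did so in the dose response, where ANKRD1 fell below it. YAP1 and WWTR1 are transcriptional coactivators that bind no DNA themselves and act through the TEAD factors. In the Hippo pathway the MST kinases activate the LATS kinases, which phosphorylate both coactivators and keep them out of the nucleus. Spreading, tension on the actin cytoskeleton and low cell density favour nuclear entry of the coactivators. In the early embryo, YAP and TEAD activity is known for its part in separating trophectoderm from the inner cell mass, and its targets include secreted matrix proteins and feedback inhibitors of the pathway itself.

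All 13 libraries were bulk RNA-seq of RUES2, a human embryonic stem cell line, carrying a GFP::SMAD4 fusion. The growth protocol shared by all labels names mTeSR1 medium with ROCK inhibitor. The time series held 2 libraries of 0 h and a single one of 4, 12, 20, 28 and 42 h each, all labelled with 100 ng/mL BMP4, 5 µM IWP2 (which blocks Wnt secretion) and ROCK inhibitor. The dose response, at 5 h, had 1 library each with BMP4, IWP2 and ROCK inhibitor plus 0, 10, 30, 100 or 300 nM LDN-193189 (LDN, which inhibits BMP type I receptors), and 1 of untreated cells. The treatment label of the untreated cells gave mTeSR alone, and whether they had ROCK inhibitor during the 5 h is not given in the sources used here, so BMP4, IWP2 and any change in ROCK inhibitor cannot be told apart in a comparison with them. ROCK inhibitor, which lowers actomyosin tension, was named in the treatment of every time-series library and of every BMP4 library at 5 h. No source used here says that the 0 h libraries came from separate cultures, so p-values measure only the spread between these libraries, which may be technical.

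Library totals ran from 37957385 to 71333471 counts in the time series and from 15600931 to 33989998 at 5 h, the lowest being the untreated cells. The time series was made with ribosomal RNA depletion and the dose response with polyA selection, and the experiments were not compared by test. Mitochondrial genes took 7.60% and 4.29% of counts in the 0 h libraries, 2.01% to 4.23% at later times, and 7.89% in untreated cells against 4.22% to 4.49% in the other 5 h libraries; the part of this in the results was not tested. The 6 pluripotency markers summed to 2914 and 3363 CPM, counts scaled to equal library size, at 0 h and 1457 CPM at 42 h. POU5F1 held most of the 42 h sum, at 986 and 1675 CPM at 0 h and 1321 CPM at 42 h. The other 5 fell, to between 0.226 CPM (PRDM14) and 108 CPM (DPPA4) at 42 h. The 6 amnion-like markers (GATA3, TFAP2A, TFAP2C, ISL1, HAND1 and GABRP) rose in sum from 12.6 CPM in both 0 h libraries to 4712 CPM at 42 h. HAND1 alone stood at 3367 CPM at 42 h. GABRP was at 1.92 and 1.69 CPM at 0 h, 0.514 CPM at 20 h and 189 CPM at 42 h. Primitive streak and mesoderm markers summed to at most 9.09 CPM. DCN and LUM of fibroblasts and PECAM1 and CDH5 of endothelium were at 0 or at most 1.02 CPM in any library, whereas COL1A1 lay between 94.0 and 193 CPM. The members' changes thus ran alongside the change from pluripotent to amnion-like markers, and in bulk RNA a change in the share of cells of a type and a change in RNA per cell cannot be told apart.

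To compare levels between genes, the authors' FPKM, which correct for gene length, were used. At 0 h TEAD2 stood highest, at 92.4 and 125 FPKM in replicates 1 and 2, followed by TEAD4 at 60.0 and 71.1 and YAP1 at 48.9 and 45.8. CCN2 (26.4 and 23.2 FPKM), CCN1 (22.3 and 25.2), AMOTL2 (16.4 and 24.6) and TEAD1 (20.0 and 15.1) formed a middle group in which the ranges of neighbouring genes overlapped. TEAD3 followed, at 15.8 and 16.1 FPKM, within the range of TEAD1. WWTR1 was lower, at 9.75 and 8.08 FPKM, and ANKRD1 was listed at 0.03 and 0. By 42 h the order had changed: AMOTL2 led at 374 FPKM and TEAD3 was next at 116, with TEAD4 at 85.2, YAP1 at 83.7, TEAD2 at 77.9, ANKRD1 at 66.4, CCN1 at 60.9, TEAD1 at 47.7, WWTR1 at 28.3 and CCN2 at 20.2 FPKM.

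The time series asks how these genes change over hours with BMP4 and IWP2. The later times had no untreated library beside them. Changes with BMP4, IWP2, ROCK inhibitor, hours in culture and cell density therefore cannot be told apart in this series. Over the 7 libraries, 7 of the 10 genes rose along a line with hours and none fell (edgeR quasi-likelihood test, Benjamini-Hochberg adjusted p under 0.05 over all 15976 genes tested). Among all genes tested 19.2% rose in this fit, and 36.7% were called in either direction. The 3 that did not pass were TEAD2, TEAD4 and CCN2. Unadjusted p was under 0.05 for 8 of the 10, and DESeq2 also called 7. Scaling on library totals instead of TMM moved the median of all genes from -0.0047 to -0.24 and the calls from 3072 higher and 2793 lower to 2121 and 4069, and 7 members still rose. ANKRD1 passed the filter (an average of 1 CPM or more) only through the libraries at 20 h and later, so its call could hardly have been otherwise. Changes along the line are given as the log2 difference over the whole 42 h, and levels of 1 gene across libraries are CPM scaled by TMM.

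**Figure D1:**
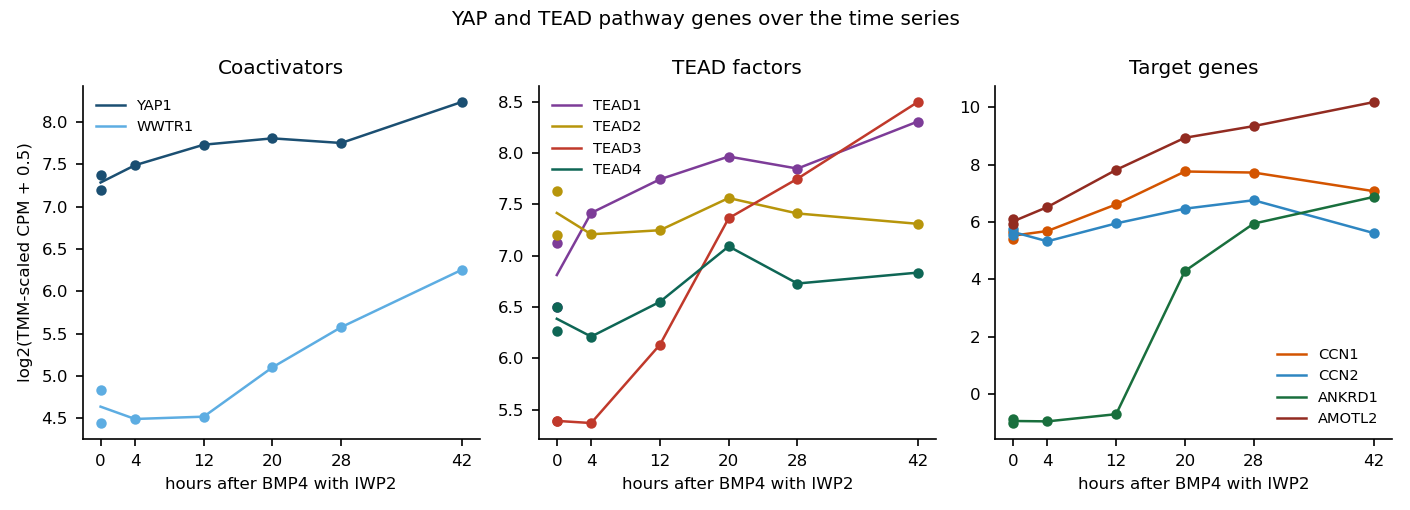
TMM-scaled CPM of each gene, as log2(CPM + 0.5), against hours after BMP4 with IWP2. Points are single libraries (2 at 0 h, 1 at each later time) and lines join the means. TEAD3, AMOTL2 and ANKRD1 climb to their highest level at 42 h, whereas CCN1 peaks at 20 h, close to its 28 h level, and CCN2 at 28 h.

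Both coactivators rose with hours, WWTR1 with the larger fitted change, and their order in time was not tested. YAP1, at chr11:102110447-102233424 (GRCh38, + strand), measured 166 and 146 CPM at 0 h, then 179, 212, 224, 215 and 301 CPM at 4, 12, 20, 28 and 42 h. All 5 later libraries lay above both at 0 h, and the last was 1.93-fold the 0 h mean of 156 ± 13.7 CPM (SD, n = 2). The fitted change was 0.85 ± 0.17 (SE) with an adjusted p of 0.00558 by edgeR, and it was 0.79 with an adjusted p of 0.0770 when the 42 h library was left out. WWTR1, at chr3:149517235-149736714 (- strand), measured 28.0 and 21.3 CPM at 0 h, 22.0 and 22.5 CPM at 4 and 12 h, and then 33.9, 47.3 and 75.8 CPM. It stayed within the 0 h range up to 12 h and rose only afterwards, to 3.08-fold the 0 h mean, with a fitted change of 1.67 ± 0.25 (adjusted p = 0.00161, edgeR). The ratio of YAP1 to WWTR1 in FPKM was 5.02 and 5.67 at 0 h, 6.93 at 4 h and 2.96 at 42 h.

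Of the 4 TEAD factors, which bind DNA for both coactivators, TEAD3 changed most. TEAD3, at chr6:35473597-35497079 (- strand), measured 41.4 and 41.6 CPM at 0 h, 40.9 CPM at 4 h, and 69.7, 164, 215 and 361 CPM at the later times. The 4 h library lay just below the closely matched 0 h pair, and the other later libraries lay above it, with an 8.69-fold level at 42 h. The fitted change was 3.42 ± 0.26 (adjusted p = 8.93e-05, edgeR). Against 0 h alone TEAD3 was called from 20 h on, with log2 differences of 1.99, 2.37 and 3.12.

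TEAD1, at chr11:12674421-12944737 (+ strand), measured 139 and 90.0 CPM at 0 h, 170.4 CPM at 4 h, and 214, 250, 230.1 and 316 CPM afterwards. All 5 later libraries lay above both at 0 h, although the 0 h pair was further apart for TEAD1 than for the other 8 members above 1 CPM (SD of 0.44 on the log2 scale). The fitted change was 1.34 ± 0.31 (adjusted p = 0.0112, edgeR), and TEAD1 was called against 0 h at 20, 28 and 42 h.

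TEAD2 and TEAD4 did not pass the test. TEAD2, at chr19:49340595-49362457 (- strand), measured 147 and 197 CPM at 0 h and between 147 and 189 CPM later, with every later library inside the 0 h range. Its fitted change was 0.0037 ± 0.21 (adjusted p = 0.989, edgeR), and the sign turned under most alternatives. TEAD4, at chr12:2959330-3040676 (+ strand), measured 76.7 and 90.2 CPM at 0 h, 73.7 and 93.3 CPM at 4 and 12 h, a highest value of 136 CPM at 20 h, and 106 and 114 CPM at 28 and 42 h. Its fitted change was 0.60 ± 0.25 (adjusted p = 0.0862, edgeR). Without the 20 h library the change was 0.53 with an adjusted p of 0.0441, and without the 42 h library 0.92 with 0.0972.

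The make-up of the TEAD transcripts therefore shifted. In FPKM, TEAD2 held 49.1% and 55.0% of the summed TEAD level at 0 h and 23.9% at 42 h, while TEAD3 held 8.42% and 7.09% at 0 h and 35.4% at 42 h. TEAD4 held between 26.1% and 37.0% throughout the time series and TEAD1 between 6.64% and 14.6%. The sum itself was 188 and 227 FPKM at 0 h and 326 FPKM at 42 h. In the 5 h libraries TEAD2 held 44.4% to 48.7%, TEAD3 7.51% to 10.3% and TEAD4 33.0% to 35.7%. The share of TEAD1 was 13.6% without LDN, 12.0%, 9.73% and 9.45% at 10, 30 and 100 nM, and 8.06% at 300 nM, with 9.37% in untreated cells. Every condition but 0 h held a single library, and no interval was put on these shares.

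**Figure D2:**
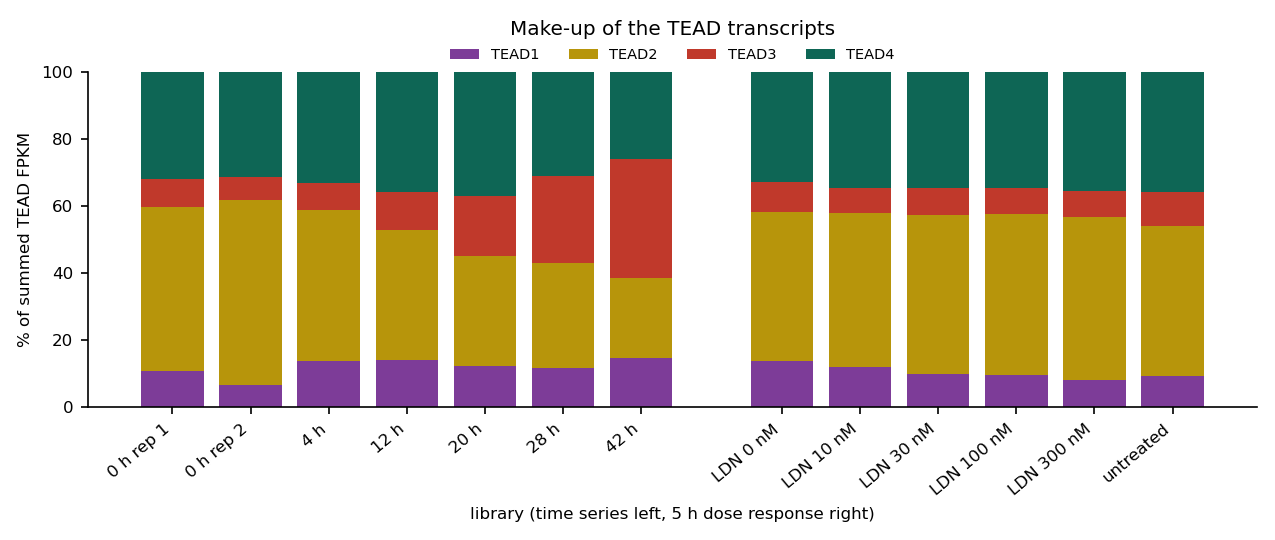
Share of each TEAD factor in the summed TEAD FPKM (%, stacked bars) in each library, with the time series on the left and the 5 h libraries on the right. TEAD3 grows from 8.42% and 7.09% at 0 h to 35.4% at 42 h while TEAD2 shrinks from 49.1% and 55.0% to 23.9%.

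The target genes were highest at different times: AMOTL2 and ANKRD1 at 42 h, CCN1 at 20 h, close to its 28 h level, and CCN2 at 28 h. AMOTL2 encodes an angiomotin family protein that binds YAP at cell junctions and restrains it. At chr3:134355347-134375479 (- strand), it measured 61.2 and 67.9 CPM at 0 h and 91.4, 225, 489, 647 and 1158 CPM at 4, 12, 20, 28 and 42 h. Each library lay above every earlier one and the last was 17.9-fold the 0 h mean of 64.6 ± 4.75 CPM (SD, n = 2). The fitted change was 4.47 ± 0.40 (adjusted p = 0.000154, edgeR).

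ANKRD1, which encodes a cardiac ankyrin repeat protein of the sarcomere and nucleus, went from barely counted to abundant. At chr10:90912096-90921087 (- strand), it had 2 and 0 counts in the 0 h libraries, 1 and 7 at 4 and 12 h, and 1154, 3514 and 6207 counts at 20, 28 and 42 h. In CPM the last 3 values were 19.1, 61.1 and 117. The ratio to 0 h was 6.67 at 12 h (95% exact counting interval 1.27 to 65.8), 1069 at 20 h (295 to 8839) and 6543 at 42 h (1810 to 54038). These intervals cover counting error only, and they rest on the 2 counts at 0 h. ANKRD1 was called against 0 h at 20, 28 and 42 h, and its fitted change of 13.57 ± 2.24 (adjusted p = 0.00269, edgeR) depends on the prior count.

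CCN1 and CCN2 encode secreted matricellular proteins that bind integrins. CCN1, at chr1:85580761-85584589 (+ strand), measured 42.0 and 49.4 CPM at 0 h, 51.0 and 97.5 CPM at 4 and 12 h, 216 and 211 CPM at 20 and 28 h, and 134 CPM at 42 h. All 5 later libraries lay above both at 0 h, with the highest at 20 h, 4.73-fold the 0 h mean. The fitted change was 2.39 ± 0.67 (adjusted p = 0.0249, edgeR). Leaving out 0 h replicate 1, 0 h replicate 2, the 4 h or the 28 h library gave adjusted p of 0.0886, 0.0713, 0.0659 and 0.0655. Without the 42 h library the change was 3.87 (adjusted p = 0.00045). Against 0 h, CCN1 was called at 12, 20, 28 and 42 h.

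CCN2, at chr6:131948176-131951372 (- strand), measured 53.4 and 46.6 CPM at 0 h, 39.7 CPM at 4 h, 61.4 and 87.8 CPM at 12 and 20 h, 108 CPM at 28 h and 48.5 CPM at 42 h. The 42 h library was thus back inside the 0 h range. Its fitted change with hours was 0.74 ± 0.50 (adjusted p = 0.278, edgeR), 1.85 with an adjusted p of 0.00438 when the 42 h library was left out, and 0.31 with an adjusted p of 0.636 without the 28 h library. Against 0 h it was called at 28 h alone (log2 difference 1.11, adjusted p = 0.00364).

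Each later time was also set against the 2 libraries of 0 h by edgeR, with the spread pooled over all genes since 1 residual degree of freedom was left, and with each lone later library assumed to vary like those at 0 h. At 4 h none of the 10 genes was called, 0 had an unadjusted p under 0.05 and DESeq2 called 0, beside 5.02% of all genes called. At 12 h CCN1 and AMOTL2 were called higher (7.04% of all genes were). At 20 h 5 members were called higher (12.4% of all genes), the additions being TEAD1, TEAD3 and ANKRD1. At 28 h 7 were called higher (13.3%), with WWTR1 and CCN2 added. At 42 h 7 were called higher (19.9%), with YAP1 added and CCN2 no longer called. With library totals YAP1 had an adjusted p of 0.0674 at 42 h, and all genes were split into 2415 higher and 3963 lower instead of 3173 and 2851. ANKRD1 passed the filter only through the libraries at 20 h and later. Its place in the counts at 20, 28 and 42 h could therefore hardly have been otherwise. No member was called lower than 0 h at any time. CCN1 and AMOTL2 passed this test at an earlier library than YAP1 (42 h) or WWTR1 (28 h). The first library to pass depends on the size of a change as well as on its time. YAP1, with a smaller rise, lay above both 0 h libraries from 4 h on, whereas WWTR1 stayed within the 0 h range up to 12 h. Differences in these times were not tested.

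The fall of CCN2 between the last libraries was examined in a contrast of 42 h with 28 h, added after the values were seen. CCN2 was the 1 member called, lower at 42 h by a log2 difference of -1.15 ± 0.38 (adjusted p = 0.0330, edgeR), beside 6.01% of all genes called lower. The log2 difference of CCN1 was -0.65 (adjusted p = 0.398) and those of TEAD3, AMOTL2 and ANKRD1 were 0.75, 0.84 and 0.94, none past the threshold. All genes were split into 502 higher and 960 lower, and into 418 and 1394 with library totals. Without the filter on low values the adjusted p of CCN2 was 0.0915, and each side is a single library.

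Sequences just before the start sites are shown for the 3 target genes whose windows were found, ANKRD1, AMOTL2 and CCN2. They are the 250 bases before an annotated start in RefSeq (GRCh38.p14), 5′ to 3′ on the gene's strand, with the TEAD-binding letters GGAATG, or CATTCC where they lie on the other strand, in capitals. The AMOTL2 window, at chr3:134374448-134374697 (- strand), belongs to a start inside the annotated gene. The ANKRD1 window lies at chr10:90921088-90921337 (- strand) and that of CCN2 at chr6:131951373-131951622 (- strand).
ANKRD1: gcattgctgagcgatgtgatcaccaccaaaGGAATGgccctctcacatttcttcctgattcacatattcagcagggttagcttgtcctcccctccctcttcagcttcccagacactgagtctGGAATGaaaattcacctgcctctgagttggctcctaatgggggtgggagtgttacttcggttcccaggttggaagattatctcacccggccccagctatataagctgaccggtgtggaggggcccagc
AMOTL2: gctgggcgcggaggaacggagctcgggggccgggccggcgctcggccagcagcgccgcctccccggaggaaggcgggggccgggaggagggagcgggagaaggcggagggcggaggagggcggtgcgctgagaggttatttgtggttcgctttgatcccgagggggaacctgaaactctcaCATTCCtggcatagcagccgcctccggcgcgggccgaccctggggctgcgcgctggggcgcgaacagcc
CCN2: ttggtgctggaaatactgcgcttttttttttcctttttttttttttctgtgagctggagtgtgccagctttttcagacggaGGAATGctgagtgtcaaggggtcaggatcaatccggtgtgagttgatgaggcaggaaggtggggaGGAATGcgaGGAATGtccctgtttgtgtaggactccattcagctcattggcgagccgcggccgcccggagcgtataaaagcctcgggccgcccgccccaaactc

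CCN2 held 3 copies of GGAATG, starting 169, 104 and 95 bases before the start. ANKRD1 held 2, starting 220 and 128 bases before it, and the internal AMOTL2 window held 1 on the other strand, 69 to 64 bases before it. The other AMOTL2 window, at the outer annotated start (chr3:134375418-134375667), held none and is not printed. Of all 35116 windows of this length, 11.9% held GGAATG on either strand. Windows were matched for 7 of the 10 genes, 10 windows in all; CCN1, TEAD1 and TEAD4 were not matched. Of the other matched genes YAP1 held 1 copy, and the windows of WWTR1, TEAD2 and TEAD3 held none. The BMP SMAD letters GGCGCC, present in 16.4% of all windows, were found once each in YAP1 and TEAD3, and the AP-1 letters TGANTCA, present in 6.57%, once in ANKRD1; both motifs read the same on each strand and none of these matches overlaps another. A match of letters is a description and not a binding site.

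The dose response asks how expression at 5 h follows the strength of SMAD4 signaling. Over the 5 libraries with BMP4, each gene was fitted against the SMAD4 signaling level of its LDN dose, relative to the level without LDN. That level is an average from the study's SMAD4 imaging at each dose and was not measured in these libraries. The slope is the log2 difference for 1 unit of that level. TEAD1, CCN1 and AMOTL2 rose with SMAD4 signaling and no member fell, 3 of the 9 tested, while 10.4% of the 14907 genes tested rose and 20.2% were called in either direction (edgeR). Unadjusted p was under 0.05 for 4 of the 9, and DESeq2 called 3.

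TEAD1 measured 152, 131, 123, 105 and 89.5 CPM at 0, 10, 30, 100 and 300 nM LDN. It was lower at every higher dose, with a slope of 0.97 ± 0.06 (adjusted p = 2.41e-07, edgeR), but the untreated library stood at 119 CPM, inside the range of the BMP4 libraries. With the untreated library added at a SMAD4 level of 0, the slope was 0.47 with an adjusted p of 0.110. CCN1 measured 92.3, 82.9, 81.1, 72.4 and 62.8 CPM over the same doses, while untreated cells had 64.4 CPM, so that the highest dose of LDN and no treatment were 0.975-fold apart. Its slope was 0.69 ± 0.07 (adjusted p = 1.24e-05, edgeR).

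AMOTL2 measured 105, 102, 95.4, 85.2 and 78.2 CPM over the doses, while untreated cells had 44.0 CPM. Its slope was 0.58 ± 0.06 (adjusted p = 2.72e-05, edgeR), and 0.53 with an adjusted p of 0.0938 by limma on FPKM. Every library with BMP4, that with 300 nM LDN included, thus lay above the untreated one, by 1.78-fold at 300 nM and 2.38-fold without LDN. The amnion-like markers in the same libraries had a sum of 9.70 CPM in untreated cells, 11.4 CPM under 300 nM LDN and 163 CPM under none. Within that sum GABRP went the other way, at 3.01, 1.65 and 0.890 CPM. Of the 9 members, AMOTL2 was the 1 past 2-fold between BMP4 without LDN and untreated cells, a description with no test, and it was higher, as were 4.05% of all genes past that limit. At 300 nM LDN against untreated cells 0 of 9 were past 2-fold, with 1.79% of all genes.

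**Figure D3:**
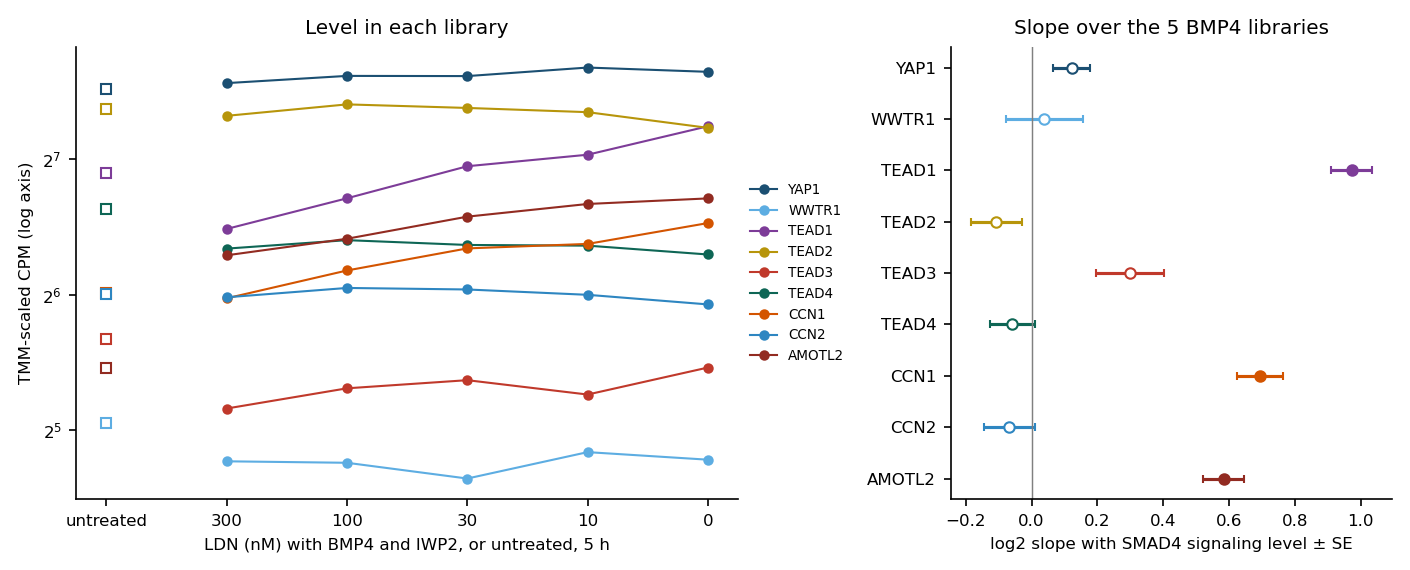
Left, TMM-scaled CPM (log axis) of the 9 members tested at 5 h in untreated cells (open squares) and with BMP4, IWP2 and 300 to 0 nM LDN (circles), 1 library each. Right, slope with SMAD4 signaling level ± SE over the 5 libraries with BMP4, filled where adjusted p was under 0.05. TEAD1, CCN1 and AMOTL2 rise toward 0 nM LDN, and the untreated AMOTL2 value of 44.0 CPM lies below all 5 with BMP4.

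The other 6 members did not pass this test. Over the 5 doses YAP1 lay between 189 and 205 CPM (slope 0.12), WWTR1 between 24.9 and 28.5 (0.04), TEAD2 between 150.3 and 169.5 (-0.11), TEAD4 between 78.6 and 84.6 (-0.06) and CCN2 between 60.8 and 66.2 CPM (-0.07). TEAD3, the factor that rose most by 42 h, lay between 35.7 and 44.0 CPM with a slope of 0.30 ± 0.10 (adjusted p = 0.0618, edgeR), and reached an adjusted p of 0.0147 without the 10 nM library. Its untreated level of 51.1 CPM was above all 5. ANKRD1 was at 0.137 CPM without LDN, 0.029 CPM at 10 nM and 0 in the other 4 libraries, that is 4 counts, 1 count and none. A count of 3 would be 0.103 CPM without LDN and 0.0875 to 0.201 CPM over the 6 libraries. The gene was below the filter and was not tested.

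Set beside the time series, TEAD1 was 1.49-fold its 0 h mean at 4 h and 1.27-fold the untreated level at 5 h, and AMOTL2 was 1.42-fold and 2.38-fold. CCN1 was 1.12-fold at 4 h and 1.43-fold at 5 h, while TEAD3 was 0.985-fold and 0.862-fold and CCN2 0.794-fold and 0.947-fold. The times, kits and reference cells differ, and no comparison was made.

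The rest of the pathway was read through gene lists, with medians set beside the median of all genes tested, which was -0.0047 for the trend with hours. Counts of called genes are to be read against the 36.7% of all genes called in this fit in either direction, and the 19.2% called higher. Of the 7 genes of the Hippo kinase core, LATS2 rose, SAV1 fell and 5 did not pass, with a median of -0.31, a share of calls below that of all genes. LATS2, a kinase that phosphorylates YAP and is itself a known YAP target, measured 35.6 and 31.9 CPM at 0 h and 131 CPM at 42 h (change 1.99 ± 0.17, adjusted p = 0.00014, edgeR). SAV1, the scaffold that joins the MST kinases to LATS, went from 62.5 and 53.0 CPM to 30.5 CPM (-0.98). Of the 16 upstream regulators 7 rose and 4 fell. WWC3, of the KIBRA family that activates LATS, rose from 73.1 and 63.8 CPM to 454 CPM, and WTIP and AJUBA, LIM proteins that restrain LATS, changed by 1.73 and 1.57. FAT4, an atypical cadherin upstream of Hippo, fell by 2.63 on the log2 scale, and the kinases TAOK1 and MAP4K4 fell by 0.68 and 0.67.

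Among the 7 proteins that bind YAP at junctions 4 rose and 3 did not pass, with a median of 0.71. AMOT, the founding angiomotin, went from 20.8 and 15.7 CPM at 0 h through 46.6 CPM at 20 h and 155 CPM at 28 h to 744 CPM at 42 h, a change of 5.30 ± 0.44 (adjusted p = 0.000117, edgeR). AMOTL1 rose by 2.02 and PTPN14, a phosphatase that binds YAP, by 1.28, so all 3 angiomotins, AMOTL2 included, rose with hours. The Vestigial-like cofactors compete with YAP for the TEAD factors. VGLL1 had 0 counts in both 0 h libraries and 396 at 42 h (7.46 CPM), at least 278-fold higher than a floor of 3 counts over both 0 h libraries, whereas VGLL3 fell from 36.6 and 25.2 CPM to 7.16 CPM. VGLL4, at 38.3 and 36.0 CPM at 0 h and 48.1 CPM at 42 h, was not called with hours. VGLL1 passed the filter through its late libraries, and VGLL2 did not pass it.

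Of 18 further genes known as YAP and TEAD targets 16 were tested, and 10 rose and 1 fell with hours, with a median of 1.88. LATS2 and PTPN14 stand in this list too and are counted in both. IGFBP3, a secreted binding protein of insulin-like growth factors, was at 12.3 and 15.3 CPM at 0 h, 53.0 CPM at 4 h, 10.5 CPM at 20 h, 51.1 CPM at 28 h and 2405 CPM at 42 h (change 6.39). MYOF, a membrane repair protein, went from 2.75 and 1.77 to 72.9 CPM (5.18), and the forkhead factor FOXF2 from 0.03 and 0.08 to 45.0 CPM (9.50, a low gene that passed the filter through later libraries). DOCK5, an exchange factor for Rac, fell by 1.03. Of 13 genes of serum response factor and the actin cytoskeleton that were tested, 7 rose and 2 fell, with a median of 0.92. The largest rises were in CNN1 (2.57), TPM1 (1.82) and MYL9 (1.62), all of contractile filaments, and FHL1 and ACTG2 fell by 2.44 and 1.78.

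**Figure D4:**
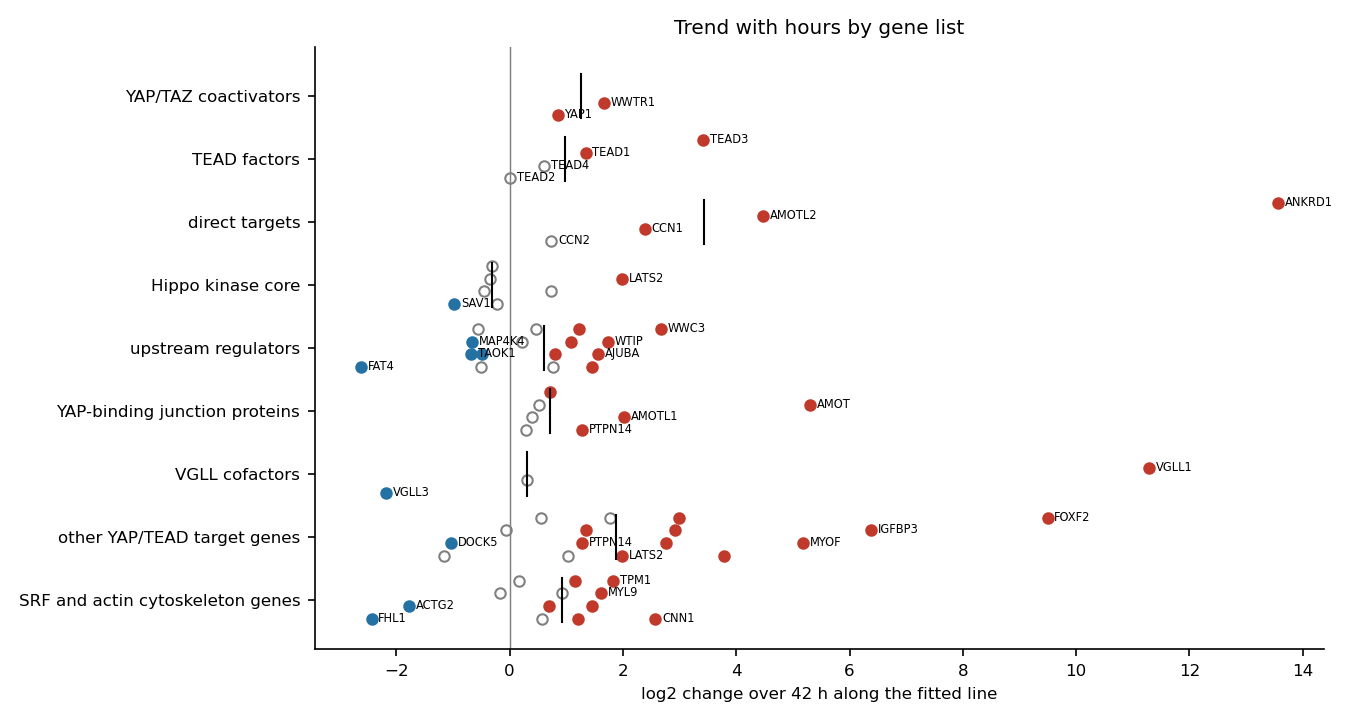
Log2 change over 42 h along the line fitted with hours, for each tested gene of each list. Red and blue points passed adjusted p under 0.05 (higher, lower), open points did not, and vertical bars mark list medians. The values of ANKRD1 (13.57), VGLL1 (11.29) and FOXF2 (9.50), near 0 counts at 0 h, depend on the prior count, and these genes passed the filter only through later libraries.

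With SMAD4 signaling at 5 h, where 20.2% of all genes were called and 10.4% were higher, list medians lay between -0.05 and 0.06 for the 5 lists described here, beside 0.0045 for all genes. None of the kinase core genes passed: 0 of 7 were called by edgeR or DESeq2, with unadjusted p under 0.05 for 2 and 1. Of the 16 upstream regulators 4 rose and 2 fell, 6 calls by edgeR against 3 by DESeq2. FRMD6, a FERM protein that acts with the Hippo kinases, measured 20.6, 17.9, 16.6, 13.8 and 10.9 CPM from 0 to 300 nM LDN and 10.6 CPM untreated (slope 1.18), and NF2 and WWC1, also upstream activators, had slopes of 0.34 and 0.28. AJUBA ran the other way, at 33.2, 37.5, 44.8, 49.4 and 59.9 CPM with 61.8 CPM untreated (slope -1.10 ± 0.08, adjusted p = 1.26e-06, edgeR). In the time series AJUBA was at 56.7 and 63.5 CPM at 0 h, 33.8 CPM at 4 h and 157 CPM at 42 h, its lowest value being at 4 h and its highest at 42 h. Of the junction proteins PTPN14 rose (0.62) and AMOTL1 fell by 0.30. Of the 15 other targets tested 4 rose and 1 fell, led by RBMS3, an RNA-binding protein, at 9.52 CPM without LDN, 1.62 CPM at 300 nM and 2.41 CPM untreated (slope 3.32), and by F3, tissue factor (1.24), and IGFBP3 (1.01), while FJX1 fell by 0.64. Of the actin genes ACTG1 alone passed (0.27).

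The genes whose profile over the 7 time-series libraries was most like that of a member were found by Pearson's r among the 12113 genes averaging 5 CPM or more, as a description over libraries that share their order in time. For AMOTL2 they were MAP3K8, SMAGP and ADGRG1 (r = 0.999 each), for TEAD3 OGDH, ARHGAP29 and WNT5B (0.998, 0.997 and 0.997), and for ANKRD1 TRIM38, MACROH2A2 and MOB3B (0.994, 0.994 and 0.992). CCN1 was most like CA10, PROM2 and CLSTN3 (0.992, 0.992 and 0.991), and CCN2 most like GALNT13, H2BU1 and CTNNA2 (0.993, 0.978 and 0.967). YAP1 was most like PI4K2A, WHRN and HDAC6 (0.994, 0.994 and 0.991) and WWTR1 most like MTMR10, FKBP9 and TBC1D20 (0.995, 0.992 and 0.992). TEAD1 came closest to BMPR2, CBFA2T2 and MLXIPL (0.991, 0.983 and 0.981), TEAD2 to RNF166, NOL12 and UNC93B1 (0.980, 0.974 and 0.955), and TEAD4 to RPIA and JMJD8 (0.985 and 0.971). Among the members themselves TEAD3 and AMOTL2 were most alike (r = 0.984), then TEAD3 and ANKRD1 (0.979). Between target genes r was 0.939 for ANKRD1 and AMOTL2, 0.903 for CCN1 and AMOTL2 and 0.849 for CCN1 and ANKRD1. For CCN2 it was 0.812 with CCN1, 0.563 with ANKRD1 and 0.545 with AMOTL2.

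Genes that overlap exons of a member were low. The highest was a long noncoding RNA on the strand opposite YAP1, at up to 5.79 CPM against 301 CPM for YAP1, followed by CD37 opposite TEAD2 (2.92 CPM) and WWTR1-AS1 opposite WWTR1 (1.13 CPM); whether the counting used strand is not given in the sources used here.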

How the data were processed

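Bulk RNA-seq was measured in 7 time-series and 6 dose-response libraries. Reads were trimmed with Cutadapt, mapped to GRCh38 with STAR 2.7.8a and counted with RSEM 1.3.3. The annotation release is not given in the sources used here. The authors deposited RSEM expected counts, which were rounded to whole numbers before the fits, and FPKM, which the authors scaled for gene length and depth.

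Groups came from the labels. edgeR 4.0.16 (quasi-likelihood test, TMM, genes averaging 1 CPM or more, Benjamini-Hochberg at 0.05) fitted a line with hours, time as a factor, and a line with the SMAD4 level of each LDN dose, read from the study's source data as a covariate only. SE was the log2 difference divided by the square root of F. Single-library comparisons used log2 ratios with 0.5 CPM added and a 2-fold limit. Alternatives were DESeq2 1.42.0, other scalings, no filter, limma 3.58.1 on log2(FPKM + 0.1), the dose step as covariate, an added untreated library and left-out libraries. The fits were also run on simulated counts with known changes and a fixed spread, which cannot give the error rate for unreplicated cultures. With single libraries per condition, the scatter about a line sets the precision. A count of 3 corresponded to 0.0409 to 0.0778 CPM in the time series and 0.0875 to 0.201 CPM at 5 h.

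The members and gene lists were chosen with earlier results of these data known. Named genes were all members, in each pathway list the 3 called genes with the largest slope in each direction, and the 3 genes most like each member, of which 1 is not reported here. Fits ran in R 4.3.3. Summaries used pandas 2.3.3 and scipy 1.17.1 under Python 3.11.15, and figures matplotlib 3.10.9.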

Additional observations from a re-analysis of the deposited data

Results flagged for a closer look

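CCN2 was the 1 member whose change from 0 h differed between 28 h and 42 h by a test of that difference, the 1 pair of later times tested: the change at 42 h minus that at 28 h was -1.15 ± 0.38 on the log2 scale (adjusted p = 0.0330, edgeR), from 108 CPM at 28 h to 48.5 CPM at 42 h. The contrast was added after the values were seen, and 1 library stands at each time. No condition had 4 or more libraries, so no library could be tested for standing apart from its group.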

How the results depend on the processing

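No paired analysis was possible because the groups compared share fewer than 2 replicate numbers. Every time after 0 h and every dose had 1 library, so culture-to-culture variation within a condition was not measured, and counts near 0 limit ANKRD1 below 20 h and at 5 h. Of 604 alternative values of single members, 562 kept their direction and side of the threshold or moved by less than the spread. Calls among all genes for the trend with hours ranged from 3259 to 6602 with 1 library left out (5865 with all), the lowest without 42 h, and for the trend with SMAD4 signaling from 1944 to 2865 (3008 with all), where fewer libraries entered each fit. limma on FPKM called 1006 with SMAD4 signaling. The DESeq2 Wald test called 455 instead of 802 at 4 h, 971 instead of 1547 at 12 h and 837 instead of 1462 for 42 h against 28 h. The authors' FPKM put 1359 instead of 895 genes past 2-fold between BMP4 and untreated cells. Without the low-value filter 0 members instead of 1 were lower at 42 h than at 28 h. TEAD2 with hours turned from 0.0037 to -0.0054 (DESeq2 size factors), -0.23 (library totals), -0.0056 (DESeq2 Wald test) and -0.32 (limma on FPKM), and ranged from -0.099 to 0.18 with 1 library left out. Library totals turned TEAD3 at 4 h to 0.062 and TEAD4 at 42 h against 28 h to -0.061, and put TEAD1 at 12 h past the threshold (0.95, adjusted p = 0.0372 by edgeR). Without the filter CCN2 at 42 h against 0 h turned to 0.049. For the slope with SMAD4 signaling, the added untreated library turned WWTR1 to -0.19 and TEAD3 to -0.12. With 1 library left out the slope ranged from -0.018 to 0.13 for WWTR1, -0.31 to 0.037 for TEAD2, -0.18 to 0.020 for TEAD4 and -0.23 to 0.031 for CCN2. None of these turned values passed the threshold, and the cause was not tested for any change.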
